A study of Mus musculus with 2 samples.

Results

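The 8 genes described here encode transcription factors and cofactors known for maintaining blood stem cells: Hlf, Mecom, Mllt3, Prdm16, Gata2, Erg, Lmo2 and Tal1. They were taken by name from the 32285 genes of the matrices, and all 8 were present in both. Donor-derived mouse bone marrow cells, labelled as carrying CD45.2 and the receptor Kit (CD117), were profiled 10 weeks after transplantation with CITE-seq, a droplet method that reads transcripts and barcoded antibodies from each single cell. The groups were 1 control library and 1 that was labelled Utx-deleted; Utx is the product of Kdm6a, a histone demethylase of the complexes built around MLL3 and MLL4, whose role in stem cell self-renewal the title of the series names. The labels give no strain, age at transplantation, allele, Cre driver or number of animals for either group. With 1 library in each group no test between the groups was possible, and every difference below is one between these 2 libraries, with 95% intervals that cover counting error only.

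Hlf, a bZIP factor, and Mecom, the zinc finger protein also called EVI1, are among the genes most restricted to haematopoietic stem cells, and Prdm16 is a relative of Mecom that is needed for their upkeep. Mllt3 (AF9) reads acylated histones and recruits the machinery of transcription elongation. Gata2, Erg, Lmo2 and Tal1 belong to a group of factors that bind together at enhancers of stem and progenitor cells: Gata2 and Tal1 bind DNA, Lmo2 bridges them, and Erg is an ETS factor. Gata2 is also used by mast cells, basophils and megakaryocyte precursors, and Tal1 and Lmo2 by the erythroid and megakaryocytic lineages.

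The promoters of the 3 members past 2-fold in cells with neutrophil precursor protease transcripts, described further on, are shown first, as reference sequence, so that the genes can be recognised. They are the 250 bases before a start annotated by RefSeq on GRCm38.p6, 5′ to 3′ on the gene's strand, and capitals mark motifs for GATA factors (GATAA), Tal1 complexes (CAGCTG or CAGATG) and ETS factors (CCGGAA or AGGAAG) on either strand. These are Mecom at chr3:30509760-30510009 (minus strand), Hlf at chr11:90390918-90391167 (minus strand) and Prdm16 at chr4:154636874-154637123 (minus strand).
Mecom: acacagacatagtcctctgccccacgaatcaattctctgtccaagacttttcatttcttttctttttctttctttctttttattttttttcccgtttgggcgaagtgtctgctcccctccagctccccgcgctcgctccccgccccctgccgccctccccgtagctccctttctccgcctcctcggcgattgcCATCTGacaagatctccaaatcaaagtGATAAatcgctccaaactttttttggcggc
Hlf: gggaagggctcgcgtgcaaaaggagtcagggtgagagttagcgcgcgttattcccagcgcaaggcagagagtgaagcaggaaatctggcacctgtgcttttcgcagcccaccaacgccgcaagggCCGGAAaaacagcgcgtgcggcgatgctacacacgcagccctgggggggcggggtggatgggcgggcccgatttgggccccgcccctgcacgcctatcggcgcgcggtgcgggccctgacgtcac
Prdm16: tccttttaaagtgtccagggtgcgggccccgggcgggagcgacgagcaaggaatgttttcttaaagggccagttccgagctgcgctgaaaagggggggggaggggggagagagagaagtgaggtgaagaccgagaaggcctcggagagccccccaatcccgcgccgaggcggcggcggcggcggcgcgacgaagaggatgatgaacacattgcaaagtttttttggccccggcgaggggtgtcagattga

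RefSeq entries were matched for 7 of the 8 members, with 13 promoters. GATAA was found in 4 of these 13, at 3 members (Mecom, Tal1 and Erg), and in 22.6% of all 32851 promoters of the same length. The Mecom promoter above also holds CAGATG on the other strand, a motif of 14.4% of all promoters, and the Hlf promoter holds CCGGAA, present in 12.0% of them. The Prdm16 window holds none of the letters searched, which also included TGTGGT for Runx factors (14.0%) and the 2 palindromic or near-palindromic sites of Hlf-type factors, TTACGTAA (0.113%) and TTACATAA (0.819%). In the GENCODE M21 annotation of GRCm38, the genes lie at chr11:90336536-90390895 (Hlf), chr3:29951296-30548008 (Mecom), chr4:87769925-88033364 (Mllt3), chr4:154316125-154636873 (Prdm16), chr6:88193891-88207032 (Gata2), chr16:95359169-95586593 (Erg), chr2:103957986-103981878 (Lmo2) and chr4:115056426-115071755 (Tal1).

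The control matrix held 7827 barcodes and 122130256 gene UMIs (unique molecular identifiers, each a captured transcript), and the matrix labelled Utx-deleted held 7883 and 129736034. After filters on genes, mitochondrial UMIs and likely doublets, 7011 and 7206 cells were kept, with medians of 12367 and 11816.5 UMIs; 17 barcodes occurred in both libraries, 13 of them among kept cells. Kdm6a itself was measured at 110 CPM, the UMIs of a gene per 1000000 gene UMIs of the cells summed, in the control library and 103 CPM in the other. Counting at the 3′ end of transcripts cannot show the loss of an internal exon, so this level does not check the label.

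Cells were grouped by UMIs of marker genes, none of which is one of the 8. A progenitor cell had under 1% of its UMIs from 8 genes of maturing neutrophils (such as Ltf, Ngp and Camp) and at least 1 UMI of Kit or Cd34, which held for 1565 control cells (22.3%) and for 1442 cells (20.01%) of the one labelled Utx-deleted. A stem-marker cell was a progenitor with low counts of 8 lineage panels and at least 2 UMIs over 8 stem cell surface genes such as Procr, Esam and Adgrl4. There were 330 such cells in the control library, 4.71% of kept cells (interval 4.22 to 5.23), and 93 in the library labelled Utx-deleted, 1.29% (1.04 to 1.58), a share 3.65-fold lower. Both hashtags, antibody labels whose meaning the sample descriptions do not give, showed the lower share, from 5.26% to 0.885% for the first and from 4.45% to 1.83% for the second. The largest remaining class, called Elane-panel cells here, had 10 or more UMIs per 10000 from Elane, Prtn3 and Ctsg, the granule protease genes of neutrophil precursors, and held 921 (13.1%) and 1185 (16.4%) cells. By hashtag this share was 14.8% and 14.7% for the first, and 12.3% and 19.7% for the second, control library first. Cells at or above the 1% limit, called maturing neutrophil panel cells here, made up 75.9% and 78.3% of kept cells. Their median CD117 tag count was low, at 20 and 12 in those without Mecom, against 170 and 169 in progenitor cells without Mecom, so most kept cells carried little of the protein that the label names.

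Of the stem surface genes, Adgrl4, a receptor gene of endothelial and stem cells, had the most UMIs in stem-marker cells, but 200 and 60 of these passed the gate without it too. It gave 799 CPM in control stem-marker cells and 478 CPM in the others. Adgrl4 was not particular to these cells, since it was found in 90.7% and 79.1% of Elane-panel cells, at 245 and 135 CPM. Procr was seen in 14.5% and 6.45% of stem-marker cells and went from 9.35 to 2.52 CPM, Ly6a from 25.9 to 10.1 CPM, Flt3, the receptor of lymphoid-primed progenitors, from 132 to 29.9 CPM, and Cd34 from 268 to 164 CPM. Esam, an endothelial and stem cell adhesion gene, stood at 14.0 and 26.5 CPM. The summed lineage panels at the gate's low level also moved, from 291 to 177 CPM for Elane, Prtn3 and Ctsg, from 91.4 to 138 CPM for 5 megakaryocyte genes and from 57.7 to 80.8 CPM for 5 basophil and mast cell genes. The stem-marker cells of the 2 libraries therefore differed in these genes as well, and the part of that difference in the values of the 8 members was not tested.

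Over all kept cells, the library labelled Utx-deleted had more than 2-fold less Hlf and Mecom, and no other member passed 2-fold. Hlf gave 4147 UMIs or 38.3 CPM in the control library and 1820 UMIs or 15.9 CPM in that labelled Utx-deleted, a log2 ratio of -1.27 (-1.35 to -1.19). Mecom gave 66.4 and 27.6 CPM, also a log2 ratio of -1.27 (-1.33 to -1.20). By hashtag, Hlf was at -1.25 and -1.28, whereas Mecom was at -1.76 in the first hashtag and -0.70 in the second, which was short of 2-fold. Gata2 was at -1.25 in the first hashtag, past 2-fold, and at -0.52 in the second. Hlf and Mecom, 2 of 8 members, stood beside 5.36% of 13558 genes that were at least 2-fold lower. None of the 8 was among the 1.39% at least 2-fold higher. The median log2 ratio of the 8 was -0.61, against -0.11 for all genes tested.

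The other members spread from lower to level. Gata2 went from 41.9 to 22.4 CPM (log2 -0.90), Tal1 from 26.7 to 16.3 CPM (-0.71), Lmo2 from 235 to 166 CPM (-0.50) and Mllt3 from 43.1 to 31.4 CPM (-0.46), all with intervals below 0. Prdm16 stood at 3.38 and 3.36 CPM, with an interval of the log2 ratio from -0.22 to 0.20, and Erg at 191 and 197 CPM (0.04, interval 0.01 to 0.07). For Prdm16 this sum combined fewer UMIs from stem-marker cells with more from Elane-panel cells, which the next comparisons separate. In sums over a mixed population, fewer cells of a type and less RNA per cell cannot be told apart.

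The members lay in very different cells. In the control library, stem-marker cells, 4.71% of all, held 66.2% of the Mecom UMIs, 56.0% of Prdm16 and 48.8% of Hlf, but 30.0% of Mllt3, 29.6% of Gata2, 26.4% of Tal1, 19.0% of Lmo2 and 9.09% of Erg. Erg was not mainly a stem cell transcript here: maturing neutrophil panel cells held 69.3% of control Erg UMIs and 75.5% of the others, at 230 and 234 CPM, against 248 and 268 CPM in stem-marker cells. Within maturing neutrophil panel cells no member was past 2-fold, beside 3.1% of genes at least 2-fold lower and 1.71% higher. By hashtag, however, Mecom was past 2-fold higher there in both (1.69 and 1.29), on 46 and 157 UMIs for the first and 44 and 112 for the second, out of 211 and 443 UMIs in all. Gata2 was at -1.24 and 0.70, and Prdm16 at 0.07 and -1.12, each past 2-fold in 1 hashtag. Elane-panel cells held 43.8% and 53.0% of the Lmo2 UMIs. In the library labelled Utx-deleted, the stem-marker cells' part was 53.4% for Mecom, 31.4% for Hlf and 19.3% for Prdm16. Maturing neutrophil panel cells, with Hlf at a low level per cell, held 24.98% and 41.3% of all Hlf UMIs, control library first.

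Most Prdm16 UMIs lay in different cells in the 2 libraries. Elane-panel cells held 32 of its 366 control UMIs, 8.74%, and 195 of 384 UMIs, 50.8%, in the library labelled Utx-deleted, while the stem-marker cells' part went from 205 to 74 UMIs. The total was almost the same in both libraries, so a sum over all cells shows none of this.

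Across the lineage classes each member had its own order of levels, and the 2 libraries shared its upper end for most members. Gata2 was highest in basophil or mast cell panel cells, at 745 CPM in the control library (interval 694 to 799) and 720 CPM in the other (654 to 792), with erythroid panel cells at 207 and 229 CPM. The second of these (interval 183 to 283) overlapped that of stem-marker cells from the same library (250 to 292). Tal1 was measured at 159 and 160 CPM in megakaryocyte panel cells and at 128 and 176 CPM in erythroid panel cells. Lmo2 reached 808 and 796 CPM in megakaryocyte panel cells, above 635 and 663 CPM in stem-marker cells. Mecom was highest in stem-marker cells (626 and 710 CPM) with megakaryocyte panel cells at 235 and 218 CPM, and Hlf was highest in stem-marker cells (266 and 240 CPM) with megakaryocyte panel cells at 51.2 and 31.7 CPM. These small classes held 52 and 31 cells (megakaryocyte), 94 and 12 (erythroid) and 54 and 36 (basophil or mast cell).

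**Figure D1:**
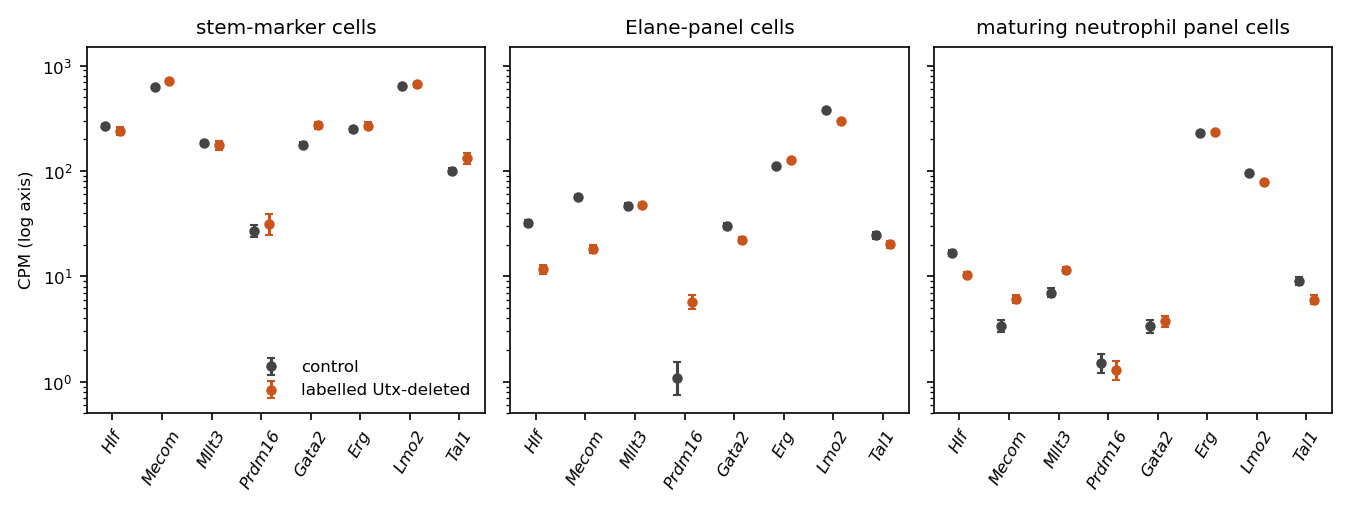
Level of each member in stem-marker cells, Elane-panel cells and maturing neutrophil panel cells, in CPM on a log axis, for the control library and the one labelled Utx-deleted; points are sums over the cells of 1 library and bars are exact 95% Poisson intervals. The pairs of points lie close together in stem-marker cells, while in Elane-panel cells Hlf and Mecom sit lower and Prdm16 higher in the library labelled Utx-deleted (1.09 and 5.72 CPM).

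Over all progenitor cells, Hlf and Mecom were again the lowest. Hlf went from 70.6 to 26.5 CPM (log2 -1.41, interval -1.52 to -1.31) and Mecom from 158 to 67.7 CPM (-1.22, -1.28 to -1.15). Gata2 went from 94.0 to 55.3 CPM (-0.76), Tal1 from 51.5 to 34.7 CPM (-0.57), Mllt3 from 89.7 to 65.2 CPM (-0.46) and Lmo2 from 433 to 324 CPM (-0.42). Erg (134 and 135 CPM) and Prdm16 (6.19 and 7.05 CPM) had intervals that included 0. By hashtag Hlf was at -1.29 and -1.55 and Mecom at -1.54 and -0.91, short of 2-fold in the second. The 2 members past 2-fold stood beside 4.59% of 12347 genes at least 2-fold lower in progenitor cells, and none of the 8 was among the 1.4% at least 2-fold higher.

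A second definition of progenitors, by surface protein, gave smaller differences. It used the same tag limits in both libraries and no limit on the maturing neutrophil panel, so maturing neutrophil panel cells could enter. With cells chosen by the antibody tags for CD117 and Sca-1, 1692 control cells and 533 labelled Utx-deleted entered, the log2 ratio was -0.66 for Hlf and -0.30 for Mecom, and no member was 2-fold lower, beside 2.93% of all genes tested. In Hlf-negative progenitor cells the median Sca-1 tag count was 8 in the control library and 4 in the other, and that of CD117 was 172.5 and 169. The part of these tag counts in the smaller differences was not tested.

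The number of cells, the share of them with the transcript and the level per positive cell were then separated, after each cell was thinned at random to 5000 UMIs so that depth was equal. In progenitor cells the number of cells contributed -0.16 on the log2 scale for every member. This term rests on a ratio of progenitor shares of 0.896, which was 0.710 and 1.16 by hashtag, the second of opposite direction, and 0.306 with tags. For Hlf, Mecom, Gata2 and Tal1 most of the rest lay in the share of cells with a UMI. Where the mean is well under 1 UMI per cell, a difference in level over all cells also appears as a difference in detection, so fewer positive cells and a lower level in each cannot be told apart there. For Mecom the thinned control mean was nearer to 1, at 0.905 UMIs per cell. Hlf was detected in 20.03% of thinned control progenitors (18.1 to 22.1) and 7.28% of those labelled Utx-deleted (5.98 to 8.75), a log2 ratio of -1.46, and its UMIs per positive cell differed by -0.27. Mecom went from 27.4% to 10.7% of cells (-1.35) with -0.21 per positive cell. Gata2 went from 27.9% to 15.5% (-0.85) and Tal1 from 25.1% to 14.3% (-0.81), with level terms of 0.03 and -0.03. For Mllt3 and Lmo2 the terms for detection (-0.31 and -0.22) and for level (-0.29 and -0.32) were alike.

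Without thinning the shares were higher, and the ratios for Hlf and Mecom closer to 1. Hlf was then found in 45.1% and 21.9% of progenitor cells and Mecom in 43.3% and 19.3%, at median depths of 27628 and 26784 UMIs. The unthinned means of Mecom were 4.42 and 1.88 UMIs per cell, with 10.2 and 9.75 per positive cell. Its level term was -0.07, beside -1.17 for detection. For Hlf these terms were -0.39 and -1.04. As a reference, maturing neutrophil panel cells at the same thinned depth gave a share of 0.460% and 0.447% for Mecom, 0.711% and 0.559% for Gata2 and 0.585% and 0.354% for Prdm16; their median depths before thinning were 9796.5 and 9940 UMIs. The few neutrophil panel cells with Mecom had median CD117 tag counts of 231.5 and 314.5, against 20 and 12 in those without it, and those with Gata2 had 38 and 221. The parts of stray RNA and of remaining doublets in these shares were not tested. For Hlf the medians were close, at 22 and 15 with it and 20 and 12 without it. Hlf was found in 6.81% and 4.04% of these neutrophil panel cells, so the 7.28% (5.98 to 8.75) among progenitor cells of the library labelled Utx-deleted lay above the 4.04% (3.53 to 4.61) of the same library, with intervals that did not overlap.

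**Figure D2:**
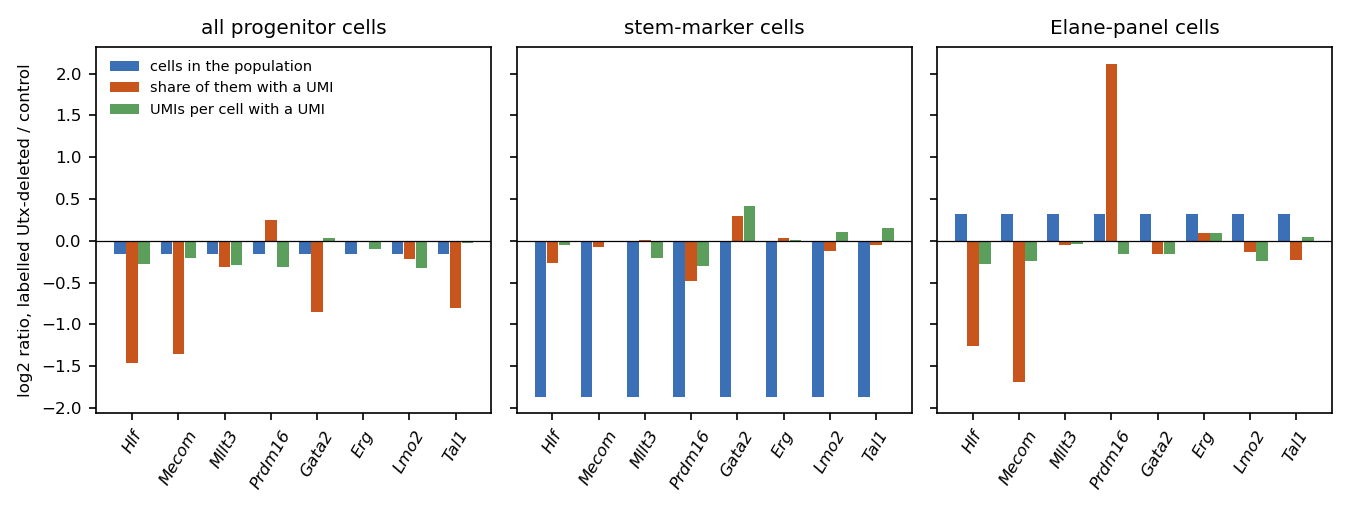
Log2 ratio of the library labelled Utx-deleted to the control library for each member, split into the share of kept cells that fall in the population, the share of these with a UMI and the UMIs per cell with a UMI, with cells thinned to 5000 UMIs; bars start at 0 and carry no error because each is a ratio of single libraries. In stem-marker cells the bar for cell number (-1.87) exceeds the others, in progenitor cells the bars for detection of Hlf (-1.46) and Mecom (-1.35) do, and in Elane-panel cells detection of Prdm16 (2.12) stands opposite to that of Hlf and Mecom.

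Within stem-marker cells the picture changed: no member passed 2-fold in either direction, beside 3.69% of 10369 genes at least 2-fold lower and 1.63% at least 2-fold higher. Hlf stood at 266 CPM in the control library and 240 CPM in the other (log2 -0.15, interval -0.29 to -0.02), and Mecom at 626 and 710 CPM (0.18, 0.10 to 0.26). Mllt3 was at 184 and 175 CPM, Prdm16 at 27.0 and 31.1 CPM, Erg at 248 and 268 CPM and Lmo2 at 635 and 663 CPM, all with intervals that included 0. Gata2 was higher in the library labelled Utx-deleted, at 177 and 270 CPM (0.61, 0.47 to 0.75), and so was Tal1, at 100 and 132 CPM (0.40, 0.20 to 0.59). The median log2 ratio of the 8 members was 0.15, against -0.003 over all genes tested.

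For all 8 members the cell number term of -1.87 was the largest of the 3 in stem-marker cells. Hlf was detected in 49.8% and 41.3% of thinned stem-marker cells, with intervals of 44.3 to 55.4 and 31.1 to 52.1 that overlapped. Mecom was found in 69.9% and 66.3%, with equal levels per positive cell (4.67 UMIs in both) after thinning. Unthinned, Mecom had 17.2 and 23.8 UMIs per positive cell, a level term of 0.47, at median depths of 22138 and 25277 UMIs. The level term of Prdm16 was 0.50 unthinned and -0.30 thinned. Gata2 was found in 45.0% and 55.4% of cells, with 1.85 and 2.47 UMIs per positive cell. The sums in the smaller population rested on few cells: 10 of the 93 cells carried 41.5% of its Mecom UMIs, 51.7% of its Hlf UMIs and 64.9% of its Prdm16 UMIs.

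The hashtags gave the spread inside a library. Gata2 was higher in stem-marker cells of both, by log2 ratios of 0.28 and 0.99, and Tal1 by 0.33 and 0.61. Mecom differed in sign, at -0.27 for the first hashtag and 0.52 for the second, and so did Hlf at 0.27 and -0.41, Prdm16 at -0.67 and 0.61 and Lmo2 at -0.10 and 0.15. The differences of Hlf and Mecom within stem-marker cells were therefore no larger than the spread between hashtags of the same libraries. With stem-marker cells chosen on the CD117 and Sca-1 tags, again without the neutrophil panel limit, the log2 ratio of Gata2 dropped to 0.10 and that of Tal1 to 0.09.

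In Elane-panel cells Hlf and Mecom were lower and Prdm16 higher in the library labelled Utx-deleted. Hlf gave 943 UMIs or 32.1 CPM in the control library and 400 UMIs or 11.7 CPM in the other (log2 -1.45, interval -1.63 to -1.28), and Mecom 1663 UMIs or 56.7 CPM and 618 UMIs or 18.1 CPM (-1.64, -1.78 to -1.51). Prdm16 gave 32 UMIs or 1.09 CPM and 195 UMIs or 5.72 CPM (2.35, 1.85 to 2.98). The background was 2.73% of 11441 genes at least 2-fold lower, with 2 members, and 1.08% at least 2-fold higher, with 1 member. This class was singled out after its values had been seen.

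The remaining members moved less in Elane-panel cells. Lmo2 went from 380 to 295 CPM (-0.37), Gata2 from 30.3 to 22.1 CPM (-0.46) and Tal1 from 24.5 to 20.2 CPM (-0.28), while Erg went from 111 to 126 CPM (0.18) and Mllt3 stood at 46.8 and 47.3 CPM. By hashtag, Prdm16 was higher in both (2.61 and 2.38), and Hlf (-1.15 and -1.69) and Mecom (-1.43 and -1.73) were lower in both.

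The difference in Prdm16 appeared in the share of Elane-panel cells with a UMI, which at these low counts would also follow from a level difference over all cells. A UMI was present in 2.61% of control cells (1.68 to 3.85) and 13.2% of those labelled Utx-deleted (11.3 to 15.2), and after thinning in 0.545% (0.177 to 1.27) and 2.37% (1.58 to 3.41). The interval of the thinned control share included the shares of maturing neutrophil panel cells in both libraries (0.585% and 0.354%), and the other share was above both. Positive cells held 1.33 and 1.25 UMIs on average and at most 4 and 3. The 10 richest cells carried 15.4% of the Prdm16 UMIs in the library labelled Utx-deleted, so the signal was spread over many cells with few UMIs each.

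Hlf and Mecom differed the other way in the same class. After thinning, Hlf was found in 12.98% and 5.41% of Elane-panel cells and Mecom in 17.4% and 5.41%, with level terms of -0.28 and -0.24 on the log2 scale. Without thinning the level terms were -0.41 and -0.47, beside detection terms of -1.19 and -1.32. The same shares in maturing neutrophil panel cells were 6.81% and 4.04% for Hlf, and 0.460% and 0.447% for Mecom. The 5.41% for Hlf (interval 4.19 to 6.86) was above the 4.04% (3.53 to 4.61), with overlapping intervals, found in maturing neutrophil panel cells of the same library. For Lmo2, present in 99.3% and 98.9% of the cells before thinning, the difference was one of level, at 12.2 and 8.57 UMIs per positive cell.

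Elane-panel cells were not alike in the 2 libraries, so they were also divided into 5 ranges of the panel's own level, a step added after the values had been seen. The lowest range, 10 to 50 UMIs of Elane, Prtn3 and Ctsg per 10000, held 211 of the control cells and 60 of the others. Hlf was lower in the library labelled Utx-deleted in 5 of 5 ranges, with log2 ratios from -1.16 to -0.32 and 4 intervals below 0. Mecom was lower in 5 of 5, from -1.88 to -0.28, and Lmo2 in 5 of 5, from -0.58 to -0.17, with every interval below 0 for both. Erg was higher in 5 of 5 ranges (0.11 to 0.60, 4 intervals above 0), and Gata2 and Mllt3 were higher in 4 of 5. Gata2 thus went the other way within most ranges than in the class as a whole (-0.46).

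Prdm16 was higher in each of the 5 ranges, with 4 intervals above 0. In the lowest range it stood at 3.92 CPM (24 UMIs) in the control library and 8.60 CPM (15 UMIs) in the other. From 50 to 100 per 10000 there was 1 control UMI in 153 cells against 41 UMIs (7.24 CPM), and from 100 to 200 there were 7 against 74. From 200 to 400, the control library had 0 UMIs in 244 cells, which allows up to 0.394 CPM at 3 counts, against 58 UMIs or 5.40 CPM. At 400 and over it had 0 UMIs in only 35 cells, which allows up to 3.42 CPM, against 7 UMIs or 4.76 CPM (interval 1.91 to 9.81), so a difference was not detectable there. Control Prdm16 UMIs lay mostly at the low end of the panel, whereas those of the library labelled Utx-deleted ran through it. The log2 ratio over the class accordingly moved with its lower limit, from 1.39 with the panel at 5 per 10000 to 3.34 at 20 per 10000, and was 1.28 with progenitors chosen by tags.

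**Figure D3:**
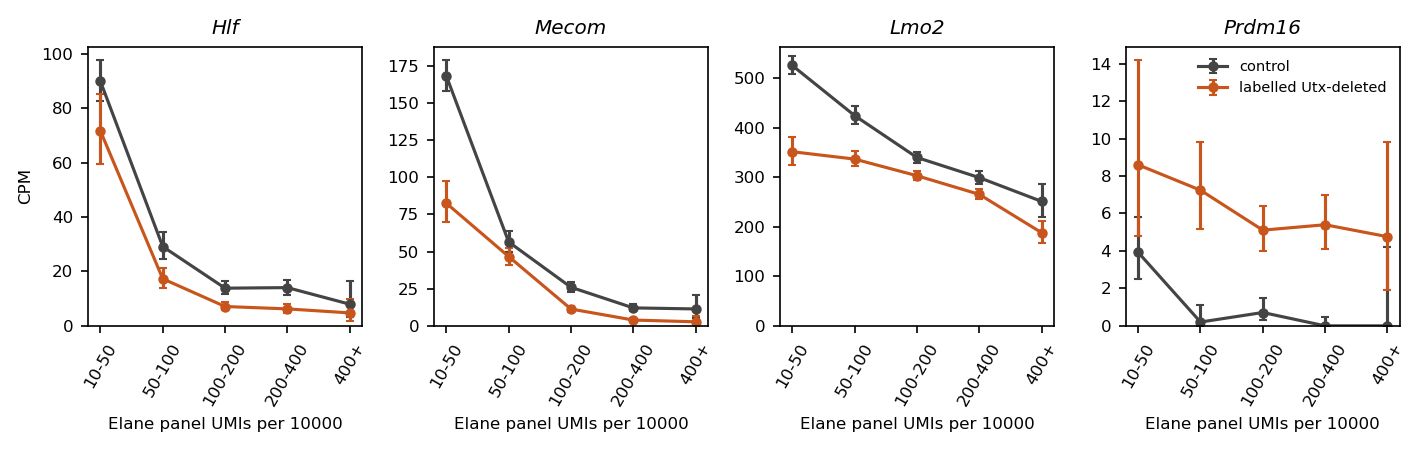
Level of Hlf, Mecom, Lmo2 and Prdm16 (CPM) in Elane-panel cells divided by their UMIs of Elane, Prtn3 and Ctsg per 10000, for the control library and the one labelled Utx-deleted, with exact 95% Poisson intervals. Hlf, Mecom and Lmo2 decline with the panel in both libraries and lie lower in the library labelled Utx-deleted, while Prdm16 lies at 0 to 0.713 CPM in control cells from 50 to 400 and between 5.11 and 7.24 CPM in the other library; the highest range holds only 35 control cells.

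Genes on the opposite strand could share reads where counting ignores strand. The 3 genes that overlap Prdm16 on the other strand had 1 UMI in all between them in Elane-panel cells of each library, and Mecomos, which overlaps Mecom on the other strand, had 6 and 7 UMIs there. Of the 7 genes that overlap Mecom, 5 lie on its own strand. None of these 5 was among the genes of the matrices, so reads from them could not be told apart from Mecom. At Lmo2, the overlapping gene 4931422A03Rik had 692 and 699 UMIs beside 11147 and 10049 of Lmo2.

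The number of members seen together in a cell followed the same division. In progenitor cells thinned to 5000 UMIs, a mean of 2.59 of the 8 members was detected in the control library and 1.90 in the other, and 14.0% and 4.20% of cells had 5 or more. In stem-marker cells the means were 4.29 and 4.17, and 45.6% and 45.7% of cells had 5 or more. In Elane-panel cells they were 1.90 and 1.65, with 4.36% and 0.931% at 5 or more. Cells with 5 or more members were thus about as frequent among stem-marker cells of both libraries, and rarer among all progenitor cells of the library labelled Utx-deleted.

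**Figure D4:**
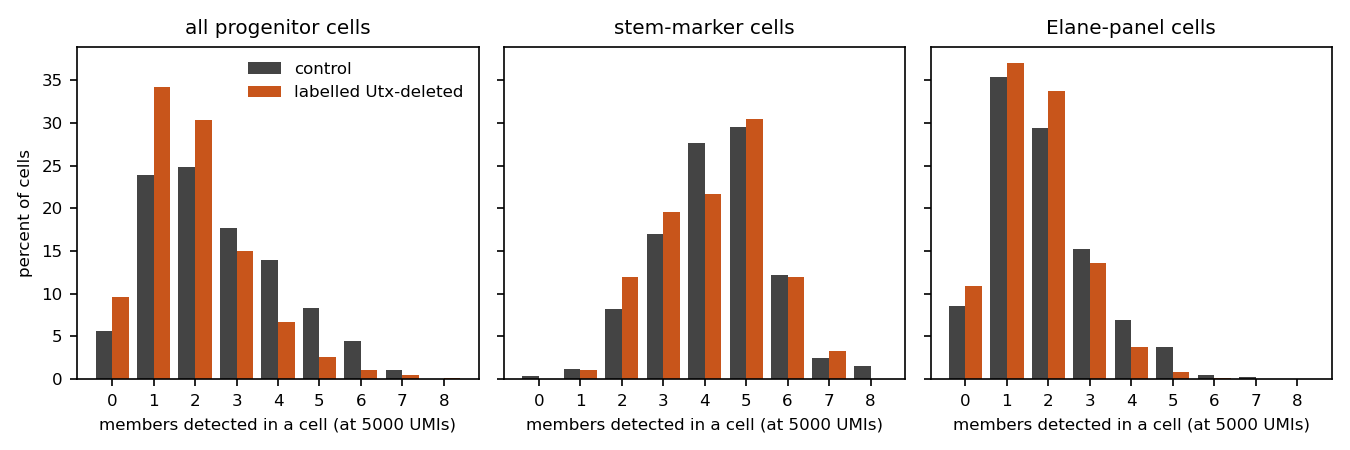
Percent of cells by the number of the 8 members detected after thinning to 5000 UMIs, in all progenitor cells, stem-marker cells and Elane-panel cells of the control library and the one labelled Utx-deleted. The distributions largely overlap in stem-marker cells (means 4.29 and 4.17) and are shifted to lower numbers in progenitor cells of the library labelled Utx-deleted (2.59 and 1.90).

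Joint detection of Hlf and Mecom in progenitor cells differed between the libraries. Both were found in 193 of 1553 thinned control progenitors, 12.4% (10.8 to 14.2), and in 47 of 1429 of the others, 3.29% (2.43 to 4.35). Among stem-marker cells the shares were 42.9% (37.4 to 48.4) and 38.0% (28.1 to 48.8), whose intervals overlapped, and among Elane-panel cells 4.58% and 0.761%. In progenitor cells the pair occurred together 2.27 times as often as the product of its single shares in the control library and 4.22 times in the other.

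Inside stem-marker cells most pairs occurred near the product of their single shares, with a median ratio of 1.02 and 1.01 over the 28 pairs. Hlf and Prdm16 had the highest ratio in both libraries, 1.55 and 1.73, on 27 and 5 cells. Hlf and Gata2 were found together less often than the product in the control library, in 14.9% of cells against 22.4% (ratio 0.664), and close to it in the other, in 21.7% against 22.9% (0.949). These pairs share cells, depth and cell state, and the ratios are descriptions.

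The surface tags of the positive cells differed between members. In control stem-marker cells, those with Hlf had median counts of 43 for Sca-1, 57.5 for CD34 and 4 for CD150 (Slamf1), and those without it had 12, 16 and 35. Cells with Gata2 showed the reverse order, with 14 for Sca-1, 17 for CD34 and 28.5 for CD150 against 29, 50 and 4 in cells without it. The order of these medians in the control library was thus opposite for Hlf and Gata2. In the library labelled Utx-deleted, cells with Hlf again had more Sca-1 (14 against 7) and CD34 (32 against 13.5), and their median of CD48, a protein that long-term stem cells lack, was 34.5 against 342.5 in cells without it. The corresponding CD48 medians in the control library were 582.5 and 682. For Gata2 in the library labelled Utx-deleted, the Sca-1 medians were close, at 8 with it and 9 without it. The others were 22 against 30 for CD34, 20 against 7 for CD150 and 314 against 117 for CD48.

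Of 20 other genes of the network, 5 were at least 2-fold lower over all kept cells, namely Gfi1b, Meis1, Msi2, Nkx2-3 and Myct1, and none was 2-fold higher, beside 5.36% of all genes tested that were at least 2-fold lower. In progenitor cells 2 of 20 were, beside 4.59% of all genes, Gfi1b (17.6 and 8.20 CPM) and Nkx2-3 (2.25 and 0.550 CPM), and in stem-marker cells 0 of 20, beside 3.69%. In Elane-panel cells 1 of the 18 measured was 2-fold lower, Gfi1b (2.52 and 1.23 CPM), beside 2.73%. In maturing neutrophil panel cells 1 of the 17 measured was 2-fold lower, Lyl1 (35.3 and 17.3 CPM), beside 3.1%, and 1 was 2-fold higher, Hmga2, a chromatin protein (3.37 and 15.1 CPM, log2 2.16), beside 1.71%. Meis1, a partner of Hox proteins, stood at 996 and 1121 CPM in stem-marker cells, and Msi2, an RNA-binding protein of stem cells, at 1211 and 1164 CPM. The 3 remaining partners of Gata2, Erg, Lmo2 and Tal1 in that group differed from one another in stem-marker cells: Fli1 was at 480 and 649 CPM (log2 0.43) and Runx1 at 1243 and 1683 CPM (0.44), whereas Lyl1 was at 60.2 and 36.2 CPM (-0.72, interval -1.08 to -0.40). In progenitor cells these 3 stood at 333 and 307 CPM (Fli1), 923 and 878 CPM (Runx1) and 50.9 and 45.7 CPM (Lyl1).

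Finally, the change of each member per kept cell was set beside what the class sizes or the class levels alone would give. Levels here were unthinned UMIs per cell, so the levels terms also include differences in depth, whose part was not tested. For Mecom, the observed log2 ratio of -1.22 stood beside -0.87 from exchanging the class sizes only and 0.08 from exchanging the levels only. For Hlf the values were -1.23, -0.52 and -0.38, for Gata2 -0.86, -0.72 and 0.16, and for Tal1 -0.67, -0.49 and 0.12. Those for Mllt3 were -0.41, -0.49 and 0.07. For Lmo2 the levels term (-0.21) was larger in size than the class size term (-0.14), beside an observed -0.46, and for Erg likewise (0.13 and -0.03, beside 0.08). In maturing neutrophil panel cells, which held most Erg UMIs, Erg averaged 2.70 and 3.01 UMIs per cell unthinned but 1.24 and 1.22 thinned. Prdm16 had opposite terms, -0.81 from the class sizes and 0.55 from the levels, beside an observed 0.03. The terms need not add up, because a class can differ in size and in level together.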

How the data were processed

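Per the file headers, the deposited values are whole-number UMI counts per feature and cell barcode written by Cell Ranger 7.1.0; the submitters' processing notes name mm10 as the genome build. How barcodes were called as cells is not given in the sources used here. The members and lists were chosen with earlier results of these data known, and the Elane-panel class and its ranges after their values were seen. All 8 members are named, and of the other network genes Fli1, Lyl1, Runx1 and those past 2-fold; Meis1 and Msi2 are named for stem-marker cells because they were past it over all cells. The 3 genes most like each member are named by rank, and 1 of those for Mecom is not reported here.

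Cells needed 500 genes and under 10% mitochondrial UMIs, which left out 349 and 214 barcodes. Scrublet in scanpy 1.11.5 marked 0.0134% and 0% of cells by itself, which had not worked, so the top 6% of scores were left out (467 and 463 cells with ties). Of kept cells, 204 and 451 carried both hashtags, called at 100 UMIs and 5 times the other. Everything ran in Python 3.11.15 with scipy 1.17.1.

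UMIs were summed over cells and divided by the gene total (CPM). Log2 ratios used 1 UMI added to each sum and an interval from the exact binomial share of the 2 sums. Levels have exact Poisson and shares exact Clopper-Pearson intervals, all covering counting error only. Genes needed 100 UMIs over both libraries (50 in stem-marker cells) to enter the counts past 2-fold. Detection was compared after thinning to 5000 UMIs, which left out 12 and 13 shallower progenitor cells and 1 and 1 stem-marker cells. Thinning also left out 533 and 278 shallower maturing neutrophil panel cells, control library first. GENCODE M21 holds 99.6% of the gene IDs. The ratio rule was checked on simulated counts. The closing section gives the alternatives and their effect.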

Additional observations from a re-analysis of the deposited data

Results flagged for a closer look

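For 3 members the log2 ratios had opposite signs in stem-marker cells and in Elane-panel cells, with no counting interval that included 0, a contrast between cell populations that was not tested. The share of all genes that meet the same rule was not determined, so these 3 have no background. Log2 ratios were below 0 for 50.6% of all genes tested in stem-marker cells and 57.8% in Elane-panel cells. Mecom was at 0.18 in stem-marker cells and -1.64 in Elane-panel cells. Gata2 was at 0.61 and -0.46, and Tal1 at 0.40 and -0.28. For Mecom, the hashtags of stem-marker cells differed in sign. Lmo2 and Mllt3 also differed in sign between these populations, with an interval that included 0 in at least 1 of them. Within the 5 ranges of the Elane panel, Gata2 was higher in the library labelled Utx-deleted in 4 and Tal1 in 3, and no interval of either gene lay below 0.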

How the results depend on the processing

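Leaving the doublets in, a stricter cell filter, the neutrophil limit at 0.5%, other minimums of UMIs, TMM scaling and a total without abundant genes kept the main values of cell shares and member counts on their side. The ratio of progenitor shares, 0.896, was 0.710 in cells of the first hashtag, 1.16 in those of the second, a reversed direction, and 0.306 with tags. The ratio of stem-marker shares, 0.274, was 0.168 and 0.411 by hashtag. Members at least 2-fold lower were 2 over all kept cells, 1 with the second hashtag (beside 4.11% of genes) and 4 at 1.5-fold (beside 10.6%). In progenitor cells they were 2, 1 with the second hashtag (beside 3.78%), 0 with tags (beside 2.93%) and 3 at 1.5-fold (beside 9.38%). In stem-marker cells there were 0 under each of 22 alternatives. With the first hashtag, Gata2 (-1.25) also passed 2-fold over all kept cells, next to Hlf (-1.25) and Mecom (-1.76).

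The difference in mean members detected, -0.70, was -0.77 with the second hashtag, -0.63 with the neutrophil limit at 2%, -0.63 without a Kit or Cd34 requirement, -0.24 with tags, -0.44 and -0.80 when thinned to 2000 and 10000 UMIs and -0.82 unthinned. Joint detection of Hlf and Mecom, a difference of -9.14 percentage points, was at -8.24 with the limit at 2%, -11.6 with Kit and Cd34 each required, -4.86 with tags, -4.47 and -12.1 at 2000 and 10000 UMIs and -19.2 unthinned. The cause of these shifts was not tested.

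A stem panel without Adgrl4 (200 and 60 cells) and every lineage-low progenitor (375 and 114 cells) were tried as further alternatives, chosen after seeing the data. Without Adgrl4, the log2 ratio in stem-marker cells was -0.01 for Hlf, 0.11 for Mecom, 0.36 for Gata2 and 0.34 for Tal1. As a mean over cells, Mecom was at -0.03. Over 22 alternatives, Hlf and Mecom kept their lower values over all kept cells (-1.31 to -1.14 and -1.76 to -0.70) and in Elane-panel cells (-1.80 to -1.13 and -1.88 to -1.26), and Prdm16 its higher value in Elane-panel cells (1.28 to 3.34). Hlf changed sign in stem-marker cells under 3 of them, Mecom under 2, Lmo2 under 4, Gata2 and Tal1 under 0. Not every alternative could move a ratio. Those of the neutrophil limit, Kit and Cd34, lineage panels, stem panel, tags, fold and UMI minimum leave ratios over all kept cells unchanged. Those of the stem panel, fold and minimum do so in Elane-panel cells, and those of fold and minimum in stem-marker cells. No paired analysis was possible because each group has 1 library. With 93 stem-marker cells in the smaller population and 74 Prdm16 UMIs in them, these low counts limited what could be seen of Prdm16 there.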

Other observations

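The genes whose levels followed each member most closely across cell classes were ranked by Pearson's r of log2(CPM + 10) over 8 points, 4 classes in each of the 2 libraries, among 12339 genes. The points share libraries and depth, and with 8 of them many genes reach high values, so the names are a description. For Hlf they were Cobll1, Nr1d2 and Map9 (r from 0.974 to 0.976), for Mecom Lncpint and Gm43462 (0.996 and 0.977), for Mllt3 Zfp945, Rad54l2 and Sppl3 (0.987 to 0.988) and for Prdm16 Vangl1, Fbxo7 and Gm43387 (0.955 to 0.981). For Gata2 they were Ocrl, Gm11714 and Pak2 (0.985 to 0.994), for Erg Marcksl1, Map4k3 and Ddb2 (0.971 to 0.977), for Lmo2 Gemin5, E2f6 and Rad18 (0.982 to 0.986) and for Tal1 Dapp1, Cuedc1 and Psd3 (0.991 to 0.997).

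In maturing neutrophil panel cells, Mecom stood at 3.39 CPM in the control library and 6.09 CPM in the other, while the share of cells with a UMI was 0.771% and 0.656%. In cells with a single hashtag it was at 1.67 and 5.39 CPM for the first and 1.46 and 3.57 CPM for the second. Cells of the first and second hashtag held 46 and 44 of its 211 control UMIs there, and 157 and 112 of its 443 in the other library. Both hashtags were carried by 193 and 433 maturing neutrophil panel cells, control library first. The part of remaining doublets in these Mecom values was not tested. After thinning, the Mecom-positive cells had median CD117 tag counts of 231.5 and 314.5, against 20 and 12 in the others. The 10 richest of these cells held 71.6% and 74.0% of its UMIs there. Mllt3 was found in 3.95% and 8.20% of the same cells, at 6.98 and 11.5 CPM.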
